A study of Mus musculus with 12 samples.

Results

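The collagen chains measured here were the protein-coding genes of the mouse whose symbol has the form Col, a type number, the letter a and a chain number, without the chain of type II. By this rule 43 of the 51707 genes in the deposited data were members, and they covered 26 collagen types. A read was seen for 42 of them, and 35 passed the filter on low values and were tested. By class, the members were 10 fibril-forming chains, 9 FACIT chains (fibril-associated collagens with interrupted triple helices), 6 chains of the type IV basement membrane network, 6 chains of type VI beaded filaments, 4 transmembrane chains, 3 chains of short-chain networks, the 2 multiplexins, the anchoring fibril chain Col7a1, and Col26a1 and Col28a1, which fit none of these.

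RNA was sequenced from cells labelled MLO-Y4, a mouse osteocyte-like line, in 12 libraries that fell into 4 groups of 3. The groups were differentiated cells treated with BIGH3, differentiated control cells, undifferentiated cells treated with BIGH3 and undifferentiated control cells, all labelled as wild type. BIGH3 is the matrix protein encoded by TGFBI, added here as recombinant human protein. All cells grew on plates coated with rat tail type I collagen at 0.15 mg/mL. Differentiation medium held 10% serum, ascorbic acid at 50 µg/mL and β-glycerophosphate at 4 mM, and the labels give no such medium for undifferentiated cells, so differentiation and a direct effect of the medium cannot be told apart. The sources used here give no BIGH3 dose, no treatment time and no vehicle for the controls. The protocol shared by all samples also names HCQ and antibodies against BIGH3, which no sample's own label assigns to it. Nothing in the labels states that libraries of the same group are separate cultures, so a p-value here measures the spread between libraries, which may be technical. The deposited names carry the prefix MC3 instead of the labelled line, whose identity was not tested.

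Collagens are trimers of α chains wound into a triple helix of repeated glycine triplets. Type I, assembled from more α1 than α2 chains, is the main protein of bone matrix, and osteoblast-lineage cells are its main source in that tissue. Types V and XI sit inside fibrils and set where fibrils start and how thick they grow, while FACIT collagens lie on the fibril surface. Type IV forms the sheets of basement membranes, type VI forms beaded filaments around cells, and types VIII and X form lattices of short chains. New chains are hydroxylated on proline and lysine, with ascorbic acid as a cofactor, then folded, secreted, trimmed of their propeptides and crosslinked.

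Depth was 19014492 to 27612155 estimated reads per library. Of 6 osteocyte markers, Pdpn, Dmp1 and Phex were expressed in all libraries, Mepe was at or below 0.896 CPM (reads scaled to a fixed library size), Sost had 10 reads in all, from differentiated controls, and Fgf23 had none. The summed osteocyte markers stood at 383 to 401 CPM in differentiated BIGH3 cells, 307 to 327 CPM in differentiated control cells, 256 to 269.7 CPM in undifferentiated BIGH3 cells and 245 to 258 CPM in undifferentiated control cells. Pdpn made up most of this sum, and in differentiated cells Pdpn and Dmp1 were higher with BIGH3. Phex went the other way, at 20.9, 25.2 and 25.6 CPM in differentiated BIGH3 cells against 80.2, 87.3 and 83.7 CPM in differentiated control cells. Mepe, with 2 reads against 42, and Sost, with 0 against 10, were also lower with BIGH3. Liver transcripts marked some libraries. Afp, the gene of the fetal plasma protein alpha-fetoprotein, stood at 26.98 CPM in differentiated BIGH3 3, 24.9 CPM in differentiated control 2, 11.2 CPM in undifferentiated BIGH3 1 and 63.3 CPM in undifferentiated control 2, and no other library exceeded 3.64 CPM. Of 14 liver or yolk sac markers 13 had a read, Alb had at most 9 reads in a group and Serpina1a had none. Their summed level spanned 24.9 to 80.8 CPM in differentiated BIGH3 cells, 8.81 to 56.5 CPM in differentiated control cells, 2.69 to 24.4 CPM in undifferentiated BIGH3 cells and 3.56 to 122 CPM in undifferentiated control cells. Trf, the gene of transferrin, gave 20.2, 20.5 and 24.7 CPM of it in differentiated BIGH3 cells and 5.25, 7.73 and 4.62 CPM in differentiated control cells. Calls that ended without the libraries above 20 CPM or above 10 CPM of Afp are named with the members they touch.

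Fibrillar chains dominated the collagen transcripts in all 4 groups. Levels are given first as TPM, a share of transcripts corrected for length, which is the scale on which genes can be set against each other. Col1a2, the α2 chain of type I, led at 1491 TPM in differentiated BIGH3 cells, 1730.2 TPM in differentiated control cells, 1968 TPM in undifferentiated BIGH3 cells and 2079.9 TPM in undifferentiated control cells (means of 3). By mean over all libraries Col1a1, Col6a1, Col3a1, Col6a2, Col12a1, Col6a3 and Col5a2 followed, all above 100 TPM, and 20 of the 43 chains were above 10 TPM. Col1a1, Col6a1 and Col3a1 are near neighbours in this order: their library ranges overlapped in differentiated control cells. Summed over all members, collagen transcripts took 1.44% ± 0.038 of library reads in differentiated BIGH3 cells, 1.74% ± 0.12 in differentiated control cells, 1.84% ± 0.16 in undifferentiated BIGH3 cells and 1.93% ± 0.12 in undifferentiated control cells (SD, n = 3). The 3 differentiated BIGH3 libraries (1.40% to 1.47%) lay below all other libraries (1.62% to 2.07%), which overlapped each other. Of the collagen TPM, fibrillar chains held 66.3% to 68.4% and type VI chains 17.3% to 21.4% as group means.

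**Figure D1:**
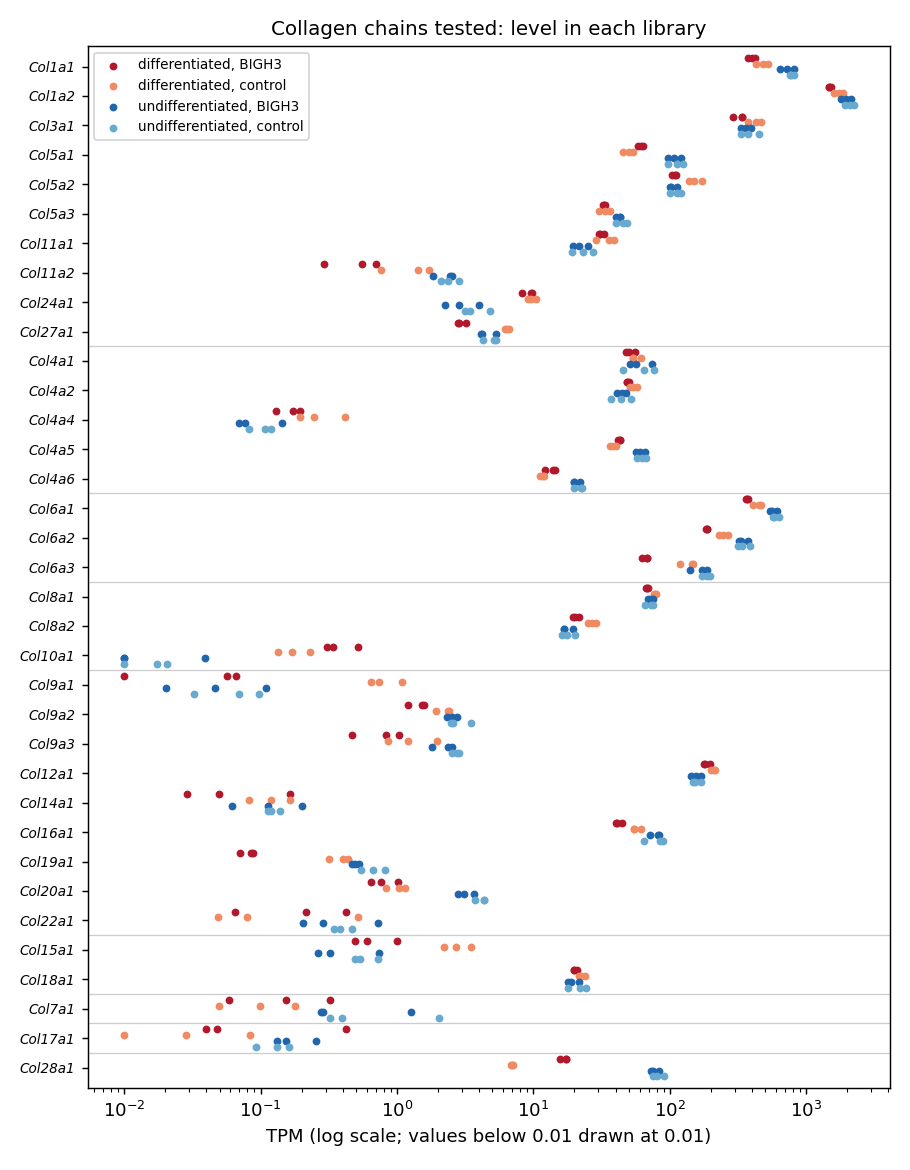
Level of each of the 35 tested collagen chains in each library, in TPM on a log scale; each point is 1 library, colours mark the 4 groups and lines part the classes. Col1a2 is highest in every group, and the differentiated BIGH3 points of Col6a3, Col9a1, Col15a1, Col19a1 and Col27a1 lie below the differentiated controls. Those of other chains lie apart too, among them Col28a1 and Col5a1, which are higher with BIGH3.

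At the other end, Col13a1, a transmembrane chain, had 0 reads in every library, which allows up to 3 reads per library, or 0.105 to 0.168 CPM. Col23a1, Col25a1 and Col26a1 reached at most 0.0938, 0.160 and 0.207 CPM in any library. Col6a5 and Col6a6 had 8 reads each over all 12 libraries, Col6a4 had 46 and Col4a3 had 64. These 8 members did not pass the filter. With no filter Col6a4 and Col26a1 were called for differentiation of controls, and none of the 8 was called in another comparison. Of the tested members, Col9a1 reached the filter's count only in differentiated controls, Col10a1 only in differentiated libraries and Col17a1 only in undifferentiated ones, so that a difference in these genes is partly built into their passing.

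In differentiated cells more collagen chains were lower than higher with BIGH3. Of 35 members tested, 3 rose and 18 fell, 60% called in all, against 45.5% of the 14711 genes tested. By direction the background was 22.6% of genes called higher and 22.9% called lower, against 8.57% and 51.4% of members. The median log2 fold change was -0.28 for the members and -0.01 for all genes tested. For all 21 called members the libraries of the compared groups did not overlap, but this does not set them apart. Uncalled members such as Col11a1, Col24a1 and Col4a5 did not overlap either, and the share over all genes was not counted. Fibrillar chains fell in 6 of 10, type VI chains in 3 of 3 tested, FACIT chains in 6 of 9 and short-chain network chains in 2 of 3. The falls include Col9a1, which passed the filter only through differentiated controls, so its call is partly built in. Of type IV, 1 of 5 tested rose and none fell. Leaving out the libraries above 20 CPM of Afp left 1 member higher and 15 lower, and leaving out those above 10 CPM left 2 higher and 16 lower. The part of liver transcripts in these calls was not tested beyond that. Other marker lists moved with BIGH3 in differentiated cells as well. All 5 muscle markers were lower in every differentiated BIGH3 library, with sums of 16.2 to 17.6 CPM against 28.8 to 31.9 CPM in differentiated control cells. Of 7 osteoblast markers 6 were lower in every differentiated BIGH3 library, among them Alpl with 436 reads against 1631 in differentiated controls. The seventh, Spp1, was higher and made up nearly all of the sums of 10167 to 11074 CPM in differentiated BIGH3 cells against 3235 to 3429 CPM in differentiated control cells. Endothelial markers summed to 4.25 to 4.604 CPM against 5.22 to 5.66 CPM in controls but went both ways. Tek had 87 reads against 247 in differentiated controls, while Cdh5 had 122 against 63. The sums of adipocyte, macrophage and epithelial markers overlapped between these groups. Among adipocyte markers Lep had 6 reads against 173, while Fabp4 (116 against 42), Adipoq and Plin1 had more with BIGH3. Among epithelial markers Cdh1 had 96 against 355, while Krt8, Krt18 and Epcam had no fewer reads with BIGH3. The last 3 were highest in the library richest in Afp of each group. Krt8 stood there at 4.37 CPM in differentiated BIGH3 3 and 3.68 CPM in differentiated control 2. The part of these cells or genes in the collagen calls was not tested. As the RNA is from bulk cultures, fewer cells of a type and less RNA per cell cannot be told apart.

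In undifferentiated cells no collagen chain was called with BIGH3, against 0.0204% of all genes (3 of 14711, 0.0068% higher and 0.0136% lower). Of the 35 tested members, 1 had an unadjusted p below 0.05, and no member was called by DESeq2, by limma on TPM or under any other setting tried. Their log2 fold changes spanned -0.36 to 0.49, with their median at -0.03. For the abundant chains the estimates were tight: -0.03 ± 0.05 log2 units for Col6a1, -0.05 ± 0.06 log2 units for Col1a2 and -0.03 ± 0.06 log2 units for Col6a3 (standard errors). The single member with an unadjusted p below 0.05 was Col20a1, at -0.35 ± 0.15 log2 units (adjusted p = 1.00). The interaction, which asks whether the BIGH3 effect differs between the states, was called for 13 members, 37.1% against 32.2% of all genes. For 12 of them it was negative, the BIGH3 log2 fold change being lower in differentiated than in undifferentiated cells (34.3% of members against 16.0% of genes). These 12 include Col9a1, which passed the filter only through differentiated controls. Col1a1, Col1a2 and Col3a1 were not among the 13 (adjusted p = 0.314, 0.0899 and 0.0767, edgeR). With no filter these chains were called, and some other settings also called Col1a2 and Col3a1.

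**Figure D2:**
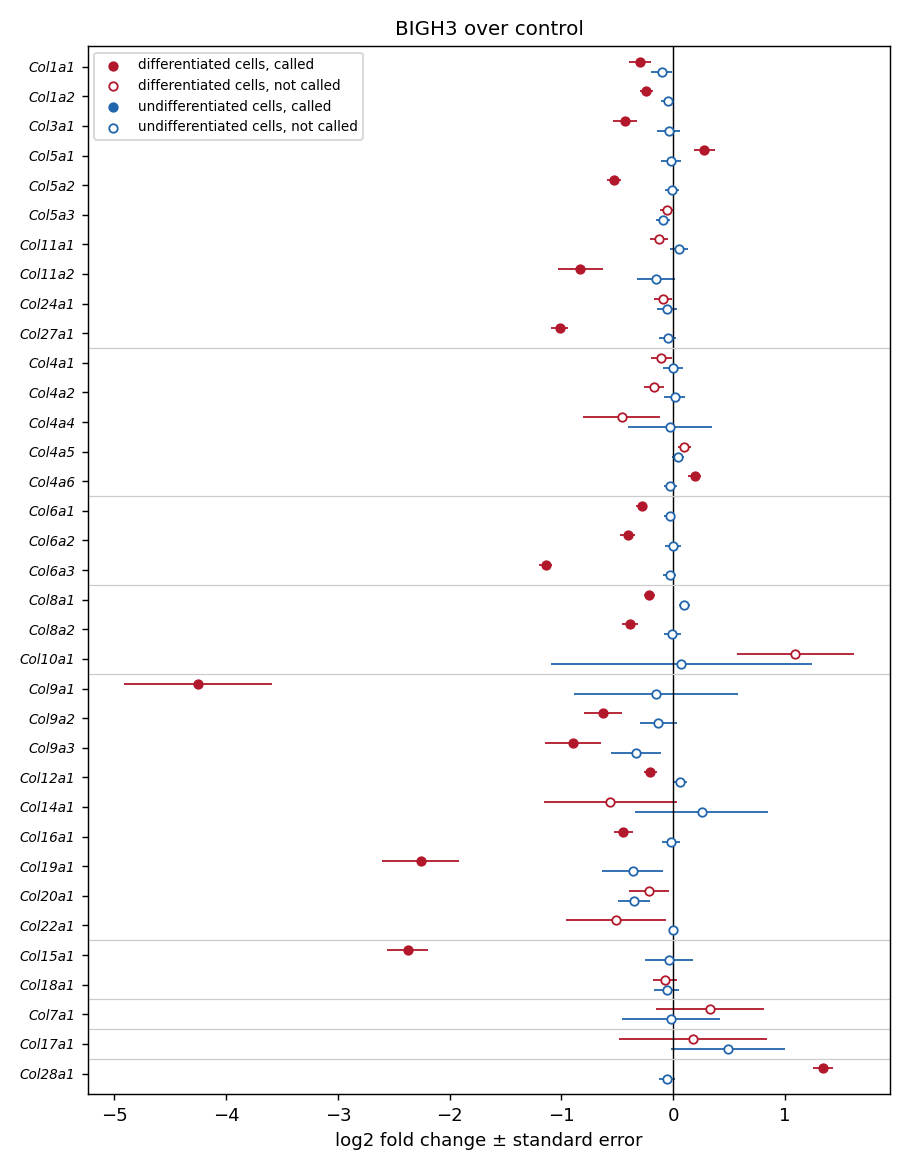
Log2 fold change of BIGH3 over control for each tested chain in differentiated (red) and undifferentiated (blue) cells, with bars of 1 standard error; filled points are called (adjusted p below 0.05, edgeR). Red points lie mostly left of 0, down to -4.25 for Col9a1, and rise above it for Col28a1, Col5a1 and Col4a6, while no blue point is filled.

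Differentiation itself shifted chains in both directions. In control cells 15 members rose and 11 fell, 74.3% called against 57.7% of all genes, with a median of 0.04. In BIGH3 treated cells 10 rose and 17 fell, 77.1% against 56.6%, with a median of -0.36. The shares called higher and lower among all genes were 29.1% and 28.6% in control cells, and 28.9% and 27.7% in BIGH3 treated cells. The rises include Col10a1 in both treatments and Col9a1 in controls, and the falls include Col17a1 with BIGH3. Each of these genes passed the filter only through libraries where it is high, so these calls are partly built in. The splits between higher and lower also depended on scaling. In TPM with a pseudocount of 1, the median of all genes was shifted to -0.25 in control cells and -0.16 in BIGH3 treated cells, and the members split into 11 higher and 15 lower and into 4 higher and 17 lower. Scaled to library totals, the all-gene medians were -0.16 and -0.10, and the splits were 13 higher and 16 lower in control cells and 8 higher and 18 lower in BIGH3 treated cells. Changes below are relative to an all-gene median near 0 (-0.01 and 0.01 in the 2 comparisons).

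**Figure D3:**
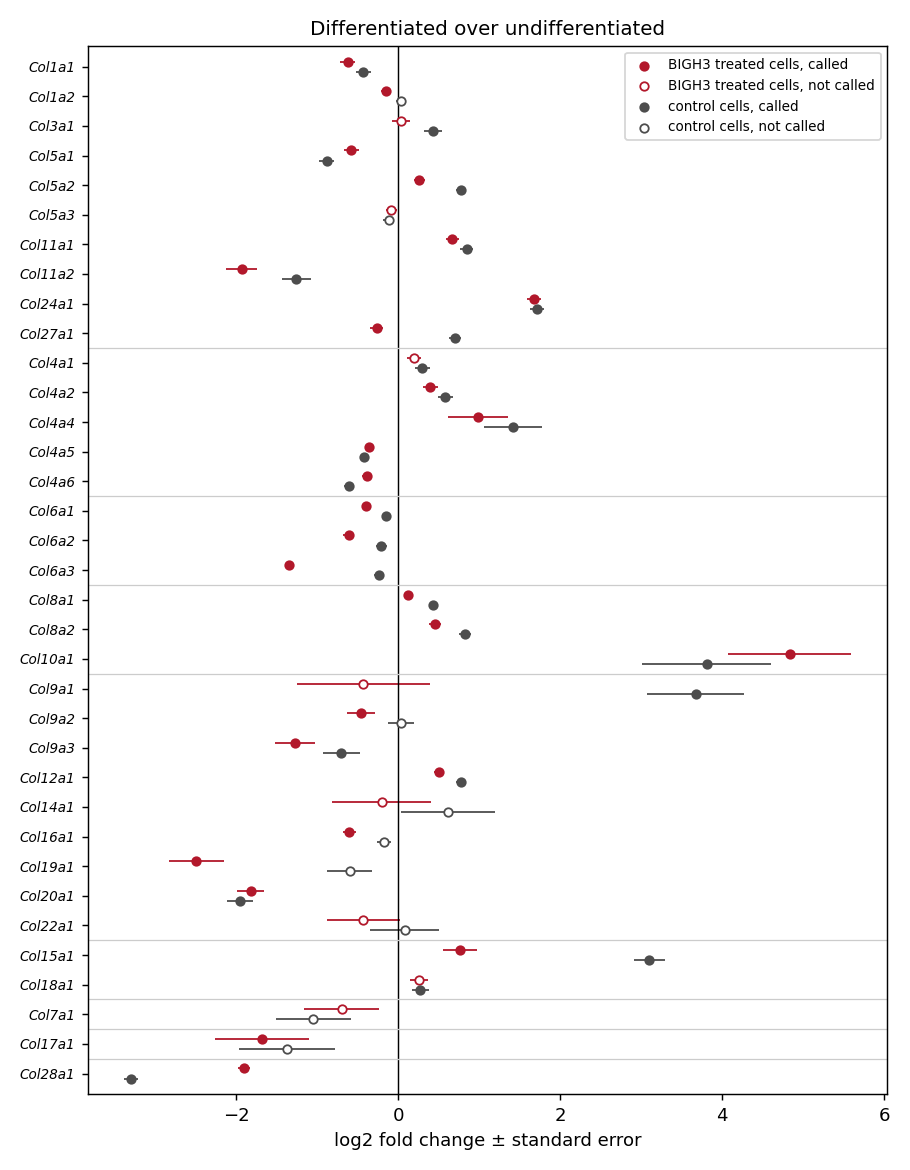
Log2 fold change of differentiated over undifferentiated cells for each tested chain, in BIGH3 treated cells (red) and control cells (grey), with bars of 1 standard error; filled points are called. Col10a1, Col15a1, Col24a1, Col4a4 and Col12a1 lie right of 0 in both, and Col28a1, Col20a1 and Col11a2 lie left of it in both.

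Both chains of type I fell with BIGH3 in differentiated cells. Values for single genes are in CPM, which serves to compare groups and not genes, and changes are log2 fold changes with their standard errors. Col1a1, the α1 chain of type I, stood at 1873, 1814 and 1616 CPM in differentiated BIGH3 cells, against 2356, 2176 and 1986 CPM in differentiated control cells. Undifferentiated cells gave 3039, 2383 and 2740.4 CPM with BIGH3, against 3003, 2710.5 and 3049 CPM in controls. All 3 differentiated BIGH3 libraries were below all differentiated controls, and all 6 differentiated libraries were below all 6 undifferentiated ones. With BIGH3 Col1a1 fell by 0.30 ± 0.10 log2 units (adjusted p = 0.0267), a call that ended without differentiated BIGH3 3, without differentiated control 1 and without the libraries above 20 CPM of Afp. On differentiation it fell by 0.62 ± 0.10 log2 units with BIGH3 (adjusted p = 2.31e-04) and by 0.43 ± 0.10 log2 units in controls (adjusted p = 0.00284). Col1a2 stood at 6427, 6275 and 5972 CPM in differentiated BIGH3 cells, against 7807, 7269 and 6989 CPM in differentiated control cells. For the undifferentiated states the values were 7445, 6362 and 6975 CPM with BIGH3, against 6799, 6965 and 7721 CPM in controls. The differentiated groups did not overlap each other, and undifferentiated libraries overlapped both. Col1a2 fell by 0.24 ± 0.06 log2 units with BIGH3 (adjusted p = 0.00291). On differentiation it had 0.04 ± 0.06 log2 units in controls, which was not called, and fell by 0.15 ± 0.06 log2 units in BIGH3 treated cells (adjusted p = 0.0344), where the libraries overlapped and the call ended without differentiated BIGH3 2 or 3, undifferentiated BIGH3 1 or 3, or the libraries richest in Afp. In TPM the value in controls was -0.27 and called.

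Col3a1, whose homotrimer forms thin fibrils together with type I in extensible tissues, stood at 1489.7, 1454 and 1251 CPM in differentiated BIGH3 cells, against 2050.2, 1852 and 1762 CPM in differentiated control cells. In the undifferentiated states it was at 1478, 1243 and 1366 CPM with BIGH3, against 1268, 1331 and 1606 CPM in controls. Differentiated controls were the highest group, above every other library. With BIGH3 it fell by 0.43 ± 0.11 log2 units in differentiated cells (adjusted p = 0.00784), a call lost without the libraries that carry most Afp at either limit. On differentiation of controls it rose by 0.43 ± 0.11 log2 units (adjusted p = 0.00600, not called in TPM), while in BIGH3 treated cells its 0.04 ± 0.11 log2 units was not called. Col3a1 shares 141 exonic bases with another gene model on the same strand that has no value in these data, so some of its reads may be uncertain.

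The type V chains moved in opposite directions. Col5a1, the α1 chain of type V that nucleates type I fibrils, stood at 410.4, 407 and 369.6 CPM in differentiated BIGH3 cells, against 345, 326 and 307 CPM in differentiated control cells. Its undifferentiated values were 658, 526 and 588 CPM with BIGH3, against 543, 581 and 673 CPM in controls. Every undifferentiated library was above every differentiated one. Col5a2, the α2 chain of the same trimer, stood at 599.6, 595 and 534 CPM in differentiated BIGH3 cells, against 896, 805 and 793 CPM in differentiated control cells. Without differentiation it was at 507, 460.3 and 472 CPM with BIGH3, against 446, 482 and 522 CPM in controls. In differentiated cells BIGH3 libraries were above controls for Col5a1 and below them for Col5a2, with no overlap for either chain. Col5a1 rose by 0.28 ± 0.09 log2 units (adjusted p = 0.0256) and Col5a2 fell by 0.53 ± 0.06 log2 units (adjusted p = 1.25e-06). The rise of Col5a1 was not called without differentiated BIGH3 1 or 2, without differentiated control 2 or 3, or without the libraries above 20 CPM of Afp. On differentiation of controls Col5a1 fell by 0.88 ± 0.09 log2 units (adjusted p = 4.04e-06) and Col5a2 rose by 0.78 ± 0.06 log2 units (adjusted p = 3.69e-09). In BIGH3 treated cells the same comparison gave -0.58 ± 0.09 log2 units and 0.26 ± 0.06 log2 units, both called, though Col5a2 was not in TPM or with library totals. For Col5a2 the BIGH3 effect differed between the states by -0.52 ± 0.09 log2 units (adjusted p = 1.80e-04). That difference was not called for Col5a1, at 0.30 ± 0.13 log2 units (adjusted p = 0.0987). It was called by DESeq2, with no filter, from protein-coding transcripts alone and without undifferentiated BIGH3 1 or undifferentiated control 1. Col5a3, the third type V chain, was called in none of the 5 comparisons by edgeR, with log2 fold changes of -0.06 in differentiated and -0.09 in undifferentiated cells for BIGH3, and of -0.08 with BIGH3 and -0.12 in controls for differentiation. Both differentiation comparisons called it in TPM and with library totals.

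The balance of type V chains within each library therefore differed between groups on the TPM scale. The ratio of Col5a1 to Col5a2 was 0.572, 0.560 and 0.567 in differentiated BIGH3 cells, 0.315, 0.334 and 0.326 in differentiated control cells, 1.07, 0.977 and 1.05 in undifferentiated BIGH3 cells and 0.977, 1.00 and 1.04 in undifferentiated control cells. Differentiated controls were lowest, differentiated BIGH3 cells lay between, and both undifferentiated groups were near 1. For the BIGH3 contrast in differentiated cells the exact two-sided permutation test over libraries gave p = 0.10, the smallest that 3 against 3 allow. In type I, the ratio of Col1a1 to Col1a2 was 0.276, 0.272 and 0.254 in differentiated BIGH3 cells and 0.282, 0.278 and 0.268 in differentiated control cells, which overlapped (exact permutation p = 0.40). Undifferentiated cells had 0.383, 0.357 and 0.369 with BIGH3 and 0.406, 0.367 and 0.366 in controls, all above the differentiated libraries. Over the 8 chain pairs tested in 4 comparisons no ratio could pass 0.05. Reads per base of each gene's leading transcript, a scale chosen after the data were seen, gave 0.541 and 0.309 for type V as means of differentiated BIGH3 and control cells, and 0.256 and 0.266 for type I.

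**Figure D4:**
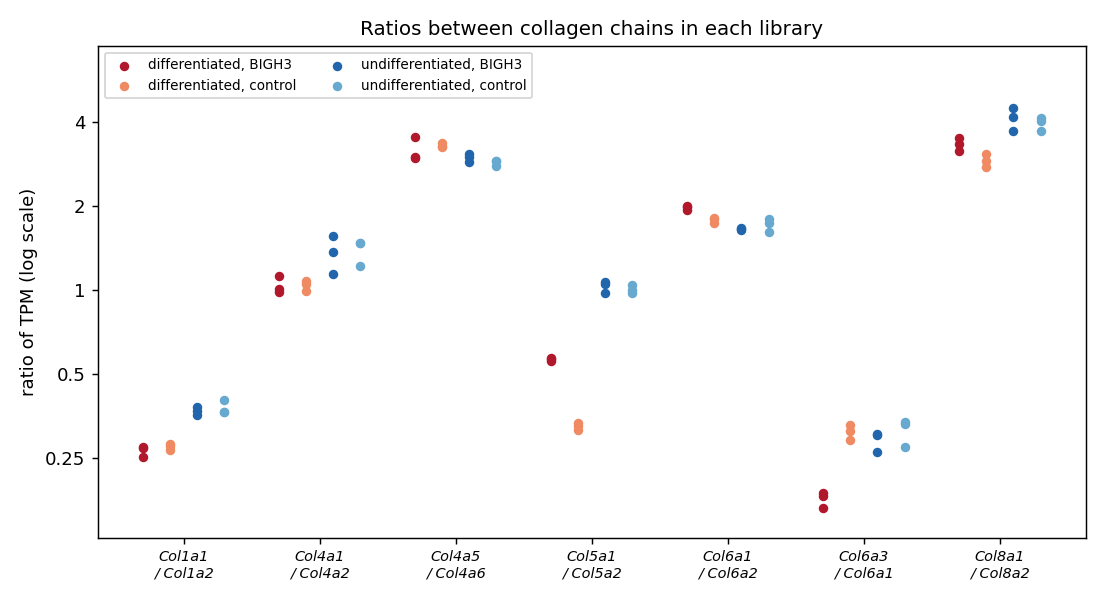
Ratio of TPM between chains of a trimer or type in each library, on a log scale; each point is 1 library, with the 4 groups side by side. Col5a1 over Col5a2 is lowest in differentiated control cells (mean 0.325), and Col6a3 over Col6a1 is lowest in differentiated BIGH3 cells (mean 0.180).

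Among the other fibrillar chains, those of cartilage fibrils split as well. Col11a1, the α1 chain of type XI, stood at 166, 164 and 175 CPM in differentiated BIGH3 cells, against 189, 183 and 178 CPM in differentiated control cells. Undifferentiated libraries had 112, 97.9 and 108 CPM with BIGH3, against 86.1, 105 and 114 CPM in controls. It was higher in every differentiated library, rising by 0.67 ± 0.08 log2 units with BIGH3 (adjusted p = 3.86e-06) and by 0.85 ± 0.08 log2 units in controls (adjusted p = 2.46e-07). Its BIGH3 change of -0.12 ± 0.08 log2 units in differentiated cells was not called, except with no filter and with the compared groups alone. Col11a2, the α2 chain, was at a far lower level, with 1.19, 2.03 and 2.13 CPM in differentiated BIGH3 cells, against 3.22, 3.30 and 2.88 CPM in differentiated control cells. Its undifferentiated values were 5.96, 6.09 and 8.16 CPM with BIGH3, against 7.74, 7.72 and 7.05 CPM in controls. Here the order was reversed, with every differentiated library below every undifferentiated one. Col11a2 fell by 0.83 ± 0.20 log2 units with BIGH3 in differentiated cells (adjusted p = 0.00236), and on differentiation by 1.93 ± 0.20 log2 units with BIGH3 (adjusted p = 4.45e-08) and 1.26 ± 0.18 log2 units in controls (adjusted p = 5.03e-06, not called with length offsets).

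Col24a1, a fibrillar chain of developing bone, stood at 43.8, 40.00 and 42.7 CPM in differentiated BIGH3 cells, against 45.6, 44.2 and 44.8 CPM in differentiated control cells. In undifferentiated cells the values were 11.2, 14.1 and 14.4 CPM with BIGH3, against 14.7, 12.9 and 13.5 CPM in controls. It was about 3 times as high in every differentiated library, with log2 rises of 1.67 ± 0.09 log2 units with BIGH3 (adjusted p = 9.14e-13) and 1.71 ± 0.08 log2 units in controls (adjusted p = 5.20e-13). Its BIGH3 change in differentiated cells, -0.09 ± 0.08 log2 units, was not called although the groups did not overlap. Col27a1, a fibrillar chain of cartilage, stood at 13.4, 14.3 and 13.9 CPM in differentiated BIGH3 cells, against 29.2, 27.6 and 27.2 CPM in differentiated control cells. Undifferentiated cells held 16.6, 17.7 and 15.6 CPM with BIGH3, against 17.2, 16.6 and 17.8 CPM in controls. Differentiated controls were highest and differentiated BIGH3 libraries were below all others. With BIGH3 it fell by 1.01 ± 0.08 log2 units in differentiated cells (adjusted p = 6.67e-10), and the effect differed from that in undifferentiated cells by -0.97 ± 0.11 log2 units (adjusted p = 5.14e-07). On differentiation it rose by 0.70 ± 0.07 log2 units in controls (adjusted p = 6.84e-08) and fell by 0.26 ± 0.08 log2 units with BIGH3 (adjusted p = 0.00746, not called from protein-coding transcripts alone).

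All 3 tested chains of type VI fell with BIGH3 in differentiated cells, Col6a3 by the most. These chains form the beaded filaments that surround cells, with Col6a3 as the longest chain of the usual trimer. Col6a1 stood at 1253, 1238 and 1186 CPM in differentiated BIGH3 cells, against 1537, 1492 and 1435 CPM in differentiated control cells. Undifferentiated values were 1718, 1532 and 1593 CPM with BIGH3, against 1618, 1579 and 1743 CPM in controls. These differentiated BIGH3 libraries were below all others. Col6a2 stood at 599.7, 611 and 567 CPM in differentiated BIGH3 cells, against 835, 780.4 and 742 CPM in differentiated control cells. For undifferentiated cells it was 979, 846 and 888 CPM with BIGH3, against 858, 846 and 1015 CPM in controls. The differentiated BIGH3 libraries were again the lowest of all 12. Col6a3 stood at 269, 273 and 279 CPM in differentiated BIGH3 cells, against 605, 627 and 575 CPM in differentiated control cells. In undifferentiated cells it was at 766, 625 and 689.8 CPM with BIGH3, against 714, 689 and 724 CPM in controls. No differentiated BIGH3 library exceeded 279 CPM, and no other library was under 575 CPM. The falls were 0.28 ± 0.05 log2 units for Col6a1 (adjusted p = 1.10e-04), 0.41 ± 0.07 log2 units for Col6a2 (adjusted p = 1.51e-04) and 1.14 ± 0.06 log2 units for Col6a3 (adjusted p = 1.56e-12). The interaction was called for all 3, at -0.25 ± 0.07 log2 units, -0.40 ± 0.10 log2 units and -1.11 ± 0.08 log2 units, with those of Col6a1 and Col6a2 not called without the libraries richest in Afp.

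On differentiation the type VI chains were lower in both treatments. In BIGH3 treated cells they fell by 0.40 ± 0.05 log2 units for Col6a1, 0.61 ± 0.07 log2 units for Col6a2 and 1.34 ± 0.06 log2 units for Col6a3 (adjusted p = 9.88e-07, 1.29e-06 and 7.53e-14). In controls the falls were 0.15 ± 0.05 log2 units, 0.21 ± 0.07 log2 units and 0.24 ± 0.06 log2 units (adjusted p = 0.0167, 0.0185 and 0.00159), and those of Col6a1 and Col6a2 were not called without differentiated control 3 or undifferentiated control 3. That of Col6a2 also ended without differentiated control 2, and that of Col6a3 with length offsets. The TPM ratio of Col6a3 to Col6a1 was 0.166, 0.188 and 0.184 in differentiated BIGH3 cells and 0.312, 0.331 and 0.291 in differentiated control cells (exact permutation p = 0.10, the smallest possible). Undifferentiated libraries overlapped the differentiated controls, at 0.304, 0.263 and 0.307 with BIGH3 and 0.331, 0.336 and 0.275 in controls. The TPM of Col6a3 is raised by a retained-intron transcript of 646 bases, Col6a3-206, which held 2.64% of its reads but a mean of 20.9 TPM in differentiated BIGH3 cells and 49.1 TPM in differentiated control cells. Over the length of the leading transcript the ratio was 0.102 and 0.184 as means of those groups, so that the level moved by more than 1.5 times and the order did not change.

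Chains of the basement membrane network responded mainly to differentiation. Col4a1 and Col4a2, the ubiquitous pair of type IV transcribed head to head, overlap by 22 exonic bases on opposite strands, and the strand of the libraries is not given. Col4a1 stood at 267, 279 and 244 CPM in differentiated BIGH3 cells, against 298, 284 and 268 CPM in differentiated control cells. Undifferentiated cells had 253, 208 and 227 CPM with BIGH3, against 206, 223 and 262 CPM in controls. Differentiated and undifferentiated BIGH3 libraries overlapped for Col4a1, and those of controls did not. Col4a2 stood at 249, 250.4 and 235 CPM in differentiated BIGH3 cells, against 288, 272 and 267 CPM in differentiated control cells. Without differentiation its values were 201, 170.1 and 187 CPM with BIGH3, against 161, 175 and 216 CPM in controls. Col4a2 was higher in all differentiated libraries, by 0.40 ± 0.09 log2 units with BIGH3 (adjusted p = 0.00298, not called in TPM) and 0.58 ± 0.09 log2 units in controls (adjusted p = 1.60e-04). Col4a1 rose by 0.30 ± 0.09 log2 units in controls (adjusted p = 0.0130), with -0.11 and no call in TPM, and none with library totals, with length offsets, without differentiated control 1 or without the libraries richest in Afp. Its 0.20 ± 0.09 log2 units with BIGH3 was not called. It was called there by DESeq2, with no filter, with the compared groups alone, from protein-coding transcripts alone and without the libraries above 10 CPM of Afp. Leaving out undifferentiated BIGH3 1, undifferentiated control 1 or undifferentiated control 3 also gave a call. Neither gene was called for BIGH3 in differentiated cells (-0.11 ± 0.09 log2 units and -0.17 ± 0.09 log2 units). Col4a2 was called there with no filter, with the compared groups alone and without undifferentiated control 3.

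Col4a5 and Col4a6, neighbouring X-linked chains of specialised basement membranes, went the other way on differentiation. Col4a5 stood at 196, 199.6 and 196 CPM in differentiated BIGH3 cells, against 188, 185 and 179 CPM in differentiated control cells. Its undifferentiated level was 265, 239 and 253 CPM with BIGH3, against 227, 241 and 267 CPM in controls. Col4a6 averaged 76.2 ± 6.21 CPM in differentiated BIGH3 cells, 66.6 ± 0.181 CPM in differentiated control cells, 99.4 ± 3.68 CPM in undifferentiated BIGH3 cells and 101 ± 6.63 CPM in undifferentiated control cells (SD, n = 3). Both were lower in every differentiated library than in any undifferentiated one. The falls were 0.36 ± 0.06 log2 units and 0.39 ± 0.06 log2 units with BIGH3 (adjusted p = 1.56e-05 and 1.14e-05) and 0.41 ± 0.06 log2 units and 0.60 ± 0.06 log2 units in controls (adjusted p = 2.16e-06 and 2.33e-08). Col4a6 was the member of type IV that rose with BIGH3 in differentiated cells, by 0.19 ± 0.06 log2 units (adjusted p = 0.0127). That call ended without any of differentiated BIGH3 2 and 3 and differentiated control 1 and 2, in TPM, and without the libraries richest in Afp. Col4a4, a chain of the kidney filter, was near the lower limit with 1.09, 1.66 and 1.40 CPM in differentiated BIGH3 cells, against 2.27, 1.23 and 2.20 CPM in differentiated control cells. Undifferentiated cells had 1.01, 0.562 and 0.497 CPM with BIGH3, against 0.844, 0.735 and 0.558 CPM in controls. It rose on differentiation by 0.99 ± 0.37 log2 units with BIGH3 (adjusted p = 0.0269, lost in TPM, without the libraries above 20 CPM of Afp and without any of differentiated BIGH3 2 and 3 and undifferentiated BIGH3 2 and 3) and 1.42 ± 0.36 log2 units in controls (adjusted p = 0.00194).

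The short-chain network genes were higher after differentiation, and the type VIII pair was lower with BIGH3 in differentiated cells. Col8a1 and Col8a2 build the hexagonal lattice of Descemet's membrane and occur in vessel walls. Col8a1 stood at 279, 281 and 272 CPM in differentiated BIGH3 cells, against 317, 316 and 334 CPM in differentiated control cells. In undifferentiated cells it was at 249.7, 251 and 266 CPM with BIGH3, against 225, 243 and 249 CPM in controls. Differentiated controls were its highest group. Col8a2 stood at 67.01, 66.7 and 61.8 CPM in differentiated BIGH3 cells, against 90.7, 86.9 and 78.2 CPM in differentiated control cells. Undifferentiated cells gave 52.4, 44.2 and 46.1 CPM with BIGH3, against 45.1, 45.5 and 52.9 CPM in controls. Differentiated controls were again highest, with no overlap. With BIGH3 in differentiated cells Col8a1 fell by 0.21 ± 0.05 log2 units (adjusted p = 0.00119) and Col8a2 by 0.39 ± 0.07 log2 units (adjusted p = 2.64e-04). On differentiation of controls they rose by 0.43 ± 0.05 log2 units and 0.83 ± 0.07 log2 units (adjusted p = 1.94e-07 and 1.25e-08), though Col8a1 was not called in TPM. In BIGH3 treated cells they rose by 0.12 ± 0.05 log2 units and 0.45 ± 0.08 log2 units (adjusted p = 0.0428 and 4.18e-05), neither called in TPM, where Col8a1 was at -0.09. The call of Col8a1 also ended with library totals, with no filter, with length offsets, from protein-coding transcripts alone, without the libraries richest in Afp and without any of 9 single libraries.

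Col10a1, the collagen of hypertrophic chondrocytes, had few reads, all but 4 of them in differentiated cells. Its libraries stood at 1.28, 0.856 and 0.728 CPM in differentiated BIGH3 cells, against 0.413, 0.330 and 0.595 CPM in differentiated control cells. In undifferentiated cells it was at 0.0810, 0 and 0 CPM with BIGH3, against 0, 0.0409 and 0.0349 CPM in controls. Summed over 3 libraries, it had 57 reads in differentiated BIGH3 cells against 2 in undifferentiated BIGH3 cells, a ratio of 34.2 (95% counting interval 9.04 to 289). In controls there were 30 reads in differentiated against 2 in undifferentiated cells, a ratio of 16.6 (4.21 to 143). Its 1.09 ± 0.53 log2 units with BIGH3 in differentiated cells was not called (adjusted p = 0.0975), though the groups did not overlap. It was called with the compared groups alone and in log2(TPM + 1). The rise of Col10a1 on differentiation of controls was not called with the compared groups alone. The counting intervals cover counting error only. Col10a1 passed the filter only through differentiated libraries, so its rise on differentiation is partly built in. Its exons overlap those of Nt5dc1 on the opposite strand by 18 bases.

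The most abundant FACIT chain, Col12a1, which binds fibrils in tissues under tension, rose on differentiation and was slightly lower with BIGH3. It stood at 1149, 1253 and 1384 CPM in differentiated BIGH3 cells, against 1403, 1476 and 1479 CPM in differentiated control cells. Undifferentiated cells gave 952, 844 and 869 CPM with BIGH3, against 876, 836 and 835 CPM in controls. The rise was 0.51 ± 0.06 log2 units with BIGH3 (adjusted p = 3.62e-07) and 0.77 ± 0.06 log2 units in controls (adjusted p = 7.18e-10). Its fall of 0.20 ± 0.06 log2 units with BIGH3 in differentiated cells (adjusted p = 0.00783) was not called in TPM or without differentiated BIGH3 1. A transcript of 1784 bases, Col12a1-204, held 6.70% of its reads and weighs more in TPM. Col16a1, a FACIT chain found near basement membranes and fibrils, stood at 133, 135 and 138 CPM in differentiated BIGH3 cells, against 199, 177 and 176 CPM in differentiated control cells. Its undifferentiated values were 216, 186 and 212 CPM with BIGH3, against 182, 205 and 235 CPM in controls. It fell by 0.45 ± 0.08 log2 units with BIGH3 in differentiated cells (adjusted p = 4.95e-04) and by 0.60 ± 0.08 log2 units on differentiation with BIGH3 (adjusted p = 2.26e-05), while in controls -0.17 ± 0.08 log2 units was not called. That comparison in controls called Col16a1 with library totals, with no filter, in TPM and from protein-coding transcripts alone. It also did so without differentiated control 1 or undifferentiated control 1.

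Among the less abundant FACIT chains, those of type IX, which coat cartilage fibrils, were low in every differentiated BIGH3 library. Col9a1 had 6 reads in differentiated BIGH3 cells against 142 in differentiated control cells, 20.6-fold lower by rate (95% counting interval 9.23 to 57.0). Its CPM were 0, 0.160 and 0.168 CPM in differentiated BIGH3 cells, against 2.73, 1.79 and 1.74 CPM in differentiated control cells. In undifferentiated cells Col9a1 was at 0.0405, 0.0936 and 0.290 CPM with BIGH3, against 0.141, 0.0817 and 0.244 CPM in controls. Only differentiated controls exceeded 1 CPM, and the log2 fold changes of -4.25 ± 0.66 log2 units for BIGH3 (adjusted p = 2.09e-05) and 3.67 ± 0.60 log2 units for differentiation of controls (adjusted p = 2.41e-05) depend on the prior count. Col9a1 passed the filter only through differentiated controls, where it is high, so both differences are partly built in. Col9a2 stood at 2.33, 3.05 and 3.02 CPM in differentiated BIGH3 cells, against 4.80, 3.91 and 4.21 CPM in differentiated control cells. Undifferentiated values were 4.05, 3.93 and 3.52 CPM with BIGH3, against 4.17, 4.29 and 4.15 CPM in controls. The differentiated BIGH3 group was lowest for Col9a2. Col9a3 stood at 1.14, 1.60 and 0.895 CPM in differentiated BIGH3 cells, against 2.65, 2.36 and 1.78 CPM in differentiated control cells. Undifferentiated cells had 3.36, 2.53 and 2.90 CPM with BIGH3, against 4.27, 3.39 and 3.42 CPM in controls. With BIGH3 in differentiated cells Col9a2 fell by 0.63 ± 0.17 log2 units (adjusted p = 0.00499) and Col9a3 by 0.90 ± 0.25 log2 units (adjusted p = 0.00582). The call of Col9a3 ended in TPM, with length offsets and without the libraries richest in Afp. On differentiation Col9a3 fell by 1.27 ± 0.25 log2 units with BIGH3 (adjusted p = 1.77e-04) and 0.70 ± 0.23 log2 units in controls (adjusted p = 0.0121, lost with length offsets and without differentiated control 3 or undifferentiated control 1). Col9a2 fell by 0.46 ± 0.17 log2 units with BIGH3 (adjusted p = 0.0278), a call not made by DESeq2, with no filter, with the compared groups alone, without the libraries above 10 CPM of Afp, or without differentiated BIGH3 1 or undifferentiated BIGH3 1 or 2. In controls it had 0.04 ± 0.16 log2 units, which was not called.

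Other markers of cartilage cells did not all go one way. All 7 markers on the chondrocyte list, which holds no collagen, had a read, and their sum stood at 116.5 to 123 CPM in differentiated BIGH3 cells, 162 to 169.5 CPM in differentiated control cells, 218 to 231 CPM in undifferentiated BIGH3 cells and 219 to 239 CPM in undifferentiated control cells. Sox9 made up nearly all of this sum. Matn1 had 0 reads in differentiated BIGH3 cells against 82 in differentiated control cells, Cnmd had 6 against 801, Hapln1 had 9 against 26 and Matn3 had 2 against 4. Comp, at 36 against 27 reads, and Acan, at 5 against 2, were the other way round. The part of these cells or genes in the collagen values was not tested.

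Of 2 further FACIT chains at low levels, Col19a1 was lowest in differentiated BIGH3 cells and Col20a1 was lower after differentiation in both treatments. Col19a1 stood at 0.319, 0.321 and 0.224 CPM in differentiated BIGH3 cells, against 1.53, 1.27 and 1.42 CPM in differentiated control cells. Undifferentiated cells had 1.499, 1.64 and 1.82 CPM with BIGH3, against 2.63, 2.25 and 1.54 CPM in controls. It fell by 2.26 ± 0.34 log2 units with BIGH3 in differentiated cells (adjusted p = 1.54e-05) and by 2.49 ± 0.34 log2 units on differentiation with BIGH3 (adjusted p = 2.71e-06). Its -0.59 ± 0.28 log2 units in controls was not called, except with library totals, in TPM and without undifferentiated control 3. Col20a1 stood at 2.42, 1.93 and 2.74 CPM in differentiated BIGH3 cells, against 2.40, 2.64 and 3.20 CPM in differentiated control cells. Its undifferentiated level was 8.71, 8.14 and 8.16 CPM with BIGH3, against 12.8, 9.60 and 9.56 CPM in controls. It fell on differentiation by 1.82 ± 0.17 log2 units with BIGH3 (adjusted p = 9.73e-09) and 1.95 ± 0.16 log2 units in controls (adjusted p = 1.66e-09), and shares 79 exonic bases with another gene model on the same strand, so its reads are uncertain. Col14a1 and Col22a1 stayed at or below 0.830 CPM and were called in no comparison under any setting.

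Of the multiplexins, which carry long interruptions in the helix and release endostatin-like fragments, Col15a1 moved most. It stood at 2.14, 1.98 and 2.01 CPM in differentiated BIGH3 cells, against 11.2, 10.9 and 9.84 CPM in differentiated control cells. In undifferentiated cells it was at 1.13, 1.54 and 0.953 CPM with BIGH3, against 1.08, 1.14 and 1.47 CPM in controls. Differentiated controls, at 9.84 CPM or more, were far above every other library, of which none exceeded 2.14 CPM. It rose by 3.10 ± 0.19 log2 units on differentiation of controls (adjusted p = 2.11e-11) and by 0.76 ± 0.21 log2 units with BIGH3 (adjusted p = 0.00391, not called in TPM or with length offsets). With BIGH3 in differentiated cells it fell by 2.38 ± 0.19 log2 units (adjusted p = 1.21e-09), which differed from undifferentiated cells by -2.34 ± 0.28 log2 units (adjusted p = 1.67e-06). Col18a1, the source of endostatin, stood at 64.4, 65.5 and 66.04 CPM in differentiated BIGH3 cells, against 72.7, 69.3 and 64.3 CPM in differentiated control cells. Undifferentiated cells had 60.9, 46.8 and 55.9 CPM with BIGH3, against 49.98, 53.5 and 66.5 CPM in controls. Its rise of 0.28 ± 0.11 log2 units on differentiation of controls (adjusted p = 0.0462), between groups that overlapped, was lost in TPM, with library totals, from protein-coding transcripts alone, without the libraries richest in Afp and without any of 8 single libraries. A replicate block ended it too (adjusted p = 0.0561). On differentiation with BIGH3 its 0.26 ± 0.11 log2 units was not called (adjusted p = 0.0632), though these groups did not overlap. It was called there by DESeq2, with no filter, with the compared groups alone and with length offsets. Leaving out undifferentiated BIGH3 1, undifferentiated control 1 or undifferentiated control 3 also gave a call.

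Col28a1, a chain with von Willebrand factor A domains known from peripheral nerve, had the largest rise with BIGH3 among the called members and the largest fall on differentiation of controls. It stood at 55.98, 57.5 and 45.3 CPM in differentiated BIGH3 cells, against 21.7, 20.2 and 20.7 CPM in differentiated control cells. Undifferentiated values were 206, 191 and 196 CPM with BIGH3, against 189, 203 and 224 CPM in controls. The 4 groups fell into 3 separate levels, lowest in differentiated controls, then differentiated BIGH3 cells, then both undifferentiated groups together. It rose by 1.34 ± 0.09 log2 units with BIGH3 in differentiated cells (adjusted p = 1.26e-09), while -0.05 ± 0.07 log2 units in undifferentiated cells was not called, a difference between the states of 1.40 ± 0.11 log2 units (adjusted p = 5.11e-08). On differentiation it fell by 1.90 ± 0.08 log2 units with BIGH3 (adjusted p = 2.40e-12) and 3.30 ± 0.08 log2 units in controls (adjusted p = 5.50e-15).

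**Figure D5:**
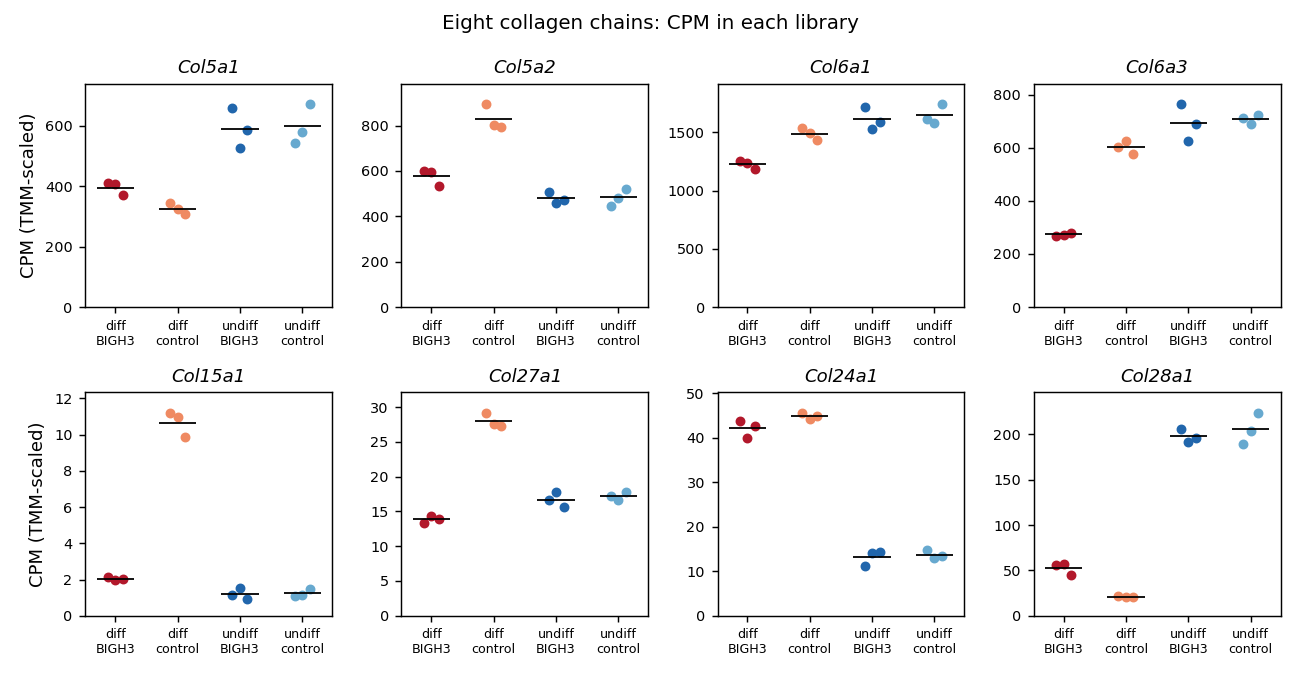
CPM of Col5a1, Col5a2, Col6a1, Col6a3, Col15a1, Col27a1, Col24a1 and Col28a1 in each library; points are libraries, lines are means of 3, and each axis starts at 0. Col15a1, Col27a1 and Col5a2 peak in differentiated controls, Col6a3 is lowest in differentiated BIGH3 cells, and Col28a1 is highest in undifferentiated cells.

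The promoters of Col15a1, Col27a1 and Col28a1 are shown as examples of genes whose BIGH3 effect differed between the states, and they were chosen after their values were seen. Col9a1, Col19a1 and Col6a3 differed by more than Col27a1. Each window is the 250 bases before the RefSeq start on GRCm38.p6, 5′ to 3′ on the gene's strand. They are chr4:47207762-47208011 on the plus strand for Col15a1, chr4:63215162-63215411 on the plus strand for Col27a1 and chr6:8192618-8192867 on the minus strand for Col28a1. Capitals mark matches to GGGCGG or to the κB-type pattern, GGGA and CC parted by 4 free bases, which occurred in Col27a1 only of the 3.
Col15a1: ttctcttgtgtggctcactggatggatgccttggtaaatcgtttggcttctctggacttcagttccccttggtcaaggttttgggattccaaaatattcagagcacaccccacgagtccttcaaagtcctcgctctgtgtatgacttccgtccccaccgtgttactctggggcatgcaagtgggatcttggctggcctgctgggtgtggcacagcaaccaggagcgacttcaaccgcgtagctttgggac
Col27a1: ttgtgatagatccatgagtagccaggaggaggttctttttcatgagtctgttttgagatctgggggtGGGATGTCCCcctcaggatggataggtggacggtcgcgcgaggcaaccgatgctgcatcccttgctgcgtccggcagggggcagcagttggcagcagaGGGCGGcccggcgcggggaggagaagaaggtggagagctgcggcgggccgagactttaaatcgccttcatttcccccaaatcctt
Col28a1: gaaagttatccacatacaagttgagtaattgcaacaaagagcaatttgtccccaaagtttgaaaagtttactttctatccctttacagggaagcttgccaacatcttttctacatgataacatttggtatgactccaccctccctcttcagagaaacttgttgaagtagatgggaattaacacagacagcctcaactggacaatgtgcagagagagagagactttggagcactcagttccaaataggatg

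Of the 43 members 35 had a window in that table, 38 windows in all, out of 32851. Searched on both strands, GGGCGG stood in 57.9% of members' windows against 32.7% of all windows, the κB-type pattern in 23.7% against 17.6%, CCAAT in 34.2% against 33.9%, TATAAA in 13.2% against 12.4% and TGANTCA in 2.63% against 6.75%. In the Col27a1 window GGGCGG lies 85 to 80 bases and the κB-type pattern 183 to 174 bases before the start. None of the 5 motifs was found in the Col15a1 and Col28a1 windows. GC content was 53.6% for Col15a1, 59.6% for Col27a1 and 40.4% for Col28a1, against a median of 52.4% over all windows. A match describes these letters and no binding.

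Chains of epithelial junctions were at the lower limit. Col7a1, which forms anchoring fibrils, stood at 0.410, 1.55 and 1.06 CPM in differentiated BIGH3 cells, against 1.28, 0.707 and 0.366 CPM in differentiated control cells. In undifferentiated cells it was at 1.42, 2.29 and 1.16 CPM with BIGH3, against 2.20, 1.51 and 1.22 CPM in controls, and edgeR called it in no comparison. For differentiation of controls, at -1.04 ± 0.46 log2 units (adjusted p = 0.0620), it was called with library totals, with no filter, with the compared groups alone, with length offsets, in log2(TPM + 0.1) and without differentiated BIGH3 1 or differentiated control 1. Col17a1, a transmembrane chain of hemidesmosomes, stood at 0.228, 0.214 and 0.168 CPM in differentiated BIGH3 cells, against 0.124, 0.377 and 0.0458 CPM in differentiated control cells. Undifferentiated libraries had 0.486, 0.562 and 0.953 CPM with BIGH3, against 0.610, 0.327 and 0.489 CPM in controls. It fell on differentiation with BIGH3 by 1.68 ± 0.58 log2 units (adjusted p = 0.0182), a call lost in TPM, with length offsets and without any differentiated BIGH3 library or undifferentiated BIGH3 3. In controls -1.37 ± 0.59 log2 units was not called (adjusted p = 0.0540), except with library totals, without differentiated control 2 and without the libraries richest in Afp.

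Genes that modify, trim, crosslink or bind collagen were mostly called in 4 of the 5 comparisons. The list held 43 such genes, of which 37 were tested. With BIGH3 in differentiated cells 16 rose and 16 fell, 86.5% called against the 45.5% of all genes, with a median log2 fold change of 0.01. In undifferentiated cells none was called, with 1 at an unadjusted p below 0.05 and a smallest adjusted p of 0.763. On differentiation 24 rose and 6 fell in BIGH3 treated cells and in control cells alike (81.1% called, against 56.6% and 57.7%), with medians of 0.26 and 0.32. Among all genes 28.9% were called higher and 27.7% lower in BIGH3 treated cells, and 29.1% and 28.6% in control cells. Other scalings, on which the splits of collagen chains depended, were not counted for this list. The interaction was called as positive for 10 and as negative for 13 (62.2% against 32.2%). Loxl2 is among the rises with BIGH3 in differentiated cells, the rises on differentiation with BIGH3 and the positive interactions. Only differentiated BIGH3 libraries, at 1.41, 1.76 and 1.12 CPM, held more than 0.78 CPM of it. It passed the filter mainly through them, so these calls are partly built in.

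Genes of propeptide trimming and proline hydroxylation were among those with the smallest adjusted p for BIGH3 in differentiated cells. Pcolce2, an enhancer of C-propeptide removal, stood at 16.3, 15.5 and 11.9 CPM with BIGH3 against 45.2, 42.9 and 40.5 CPM in controls and fell by 1.55 ± 0.09 log2 units (adjusted p = 5.79e-12). Adamts2, the main N-propeptide protease of types I and III, stood at 96.1, 89.6 and 89.5 CPM against 166, 162 and 164 CPM in controls and fell by 0.84 ± 0.06 log2 units (adjusted p = 9.42e-10). Its relative Adamts14 moved the other way, at 29.5, 28.2 and 27.4 CPM with BIGH3 against 13.8, 12.9 and 12.4 CPM in controls, a rise of 1.12 ± 0.09 log2 units (adjusted p = 1.28e-09). P3h2, a prolyl 3-hydroxylase, stood at 52.7, 54.2 and 60.2 CPM with BIGH3 against 20.96, 22.96 and 21.4 CPM in controls and rose by 1.35 ± 0.08 log2 units (adjusted p = 1.73e-11). P4ha2, a catalytic subunit of prolyl 4-hydroxylase, rose by 0.76 ± 0.07 log2 units (adjusted p = 1.97e-08), and Itga11, the α subunit of a receptor for fibrillar collagen, fell by 0.69 ± 0.07 log2 units (adjusted p = 2.32e-08). All 6 also differed between the states, with log2 interactions of -1.55 for Pcolce2, 1.24 for P3h2, -0.85 for Adamts2, 1.12 for Adamts14, 0.80 for P4ha2 and -0.73 for Itga11.

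Of the 5 tested genes of lysyl oxidases, which crosslink collagen, all rose on differentiation with BIGH3 and 2 rose in controls. These 5 include Loxl2, which passed the filter mainly through differentiated BIGH3 libraries, so its rise is partly built in. Of the 3 lysyl hydroxylases 2 rose in each treatment. Lox, the crosslinking lysyl oxidase, averaged 1080.2 ± 20.9 CPM in differentiated BIGH3 cells, 1071 ± 51.8 CPM in differentiated control cells, 584 ± 7.36 CPM in undifferentiated BIGH3 cells and 563 ± 14.8 CPM in undifferentiated control cells (SD, n = 3). It rose by 0.89 ± 0.04 log2 units with BIGH3 (adjusted p = 6.82e-13) and 0.93 ± 0.04 log2 units in controls (adjusted p = 3.53e-13). Plod2, the telopeptide lysyl hydroxylase, rose by 0.85 ± 0.04 log2 units with BIGH3 (adjusted p = 5.01e-13) and 0.73 ± 0.04 log2 units in controls (adjusted p = 6.27e-12). In BIGH3 treated cells Sec24d, a coat protein of the vesicles that carry procollagen, rose by 1.19 ± 0.05 log2 units (adjusted p = 2.69e-14), Adamts14 by 1.77 ± 0.09 log2 units (adjusted p = 1.08e-12) and P3h2 by 1.39 ± 0.08 log2 units (adjusted p = 8.16e-12), while Pcolce2 fell by 1.92 ± 0.09 log2 units (adjusted p = 1.08e-13). In controls Itga11 rose by 1.58 ± 0.07 log2 units (adjusted p = 5.25e-14), Adamts2 by 1.25 ± 0.06 log2 units (adjusted p = 1.504e-12) and Fkbp14, a prolyl isomerase that acts on procollagen, by 0.98 ± 0.05 log2 units (adjusted p = 4.97e-13). Ddr1, a collagen-binding receptor kinase, fell by 0.99 ± 0.06 log2 units in controls (adjusted p = 8.97e-12).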

How the data were processed

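Per the submitters' processing notes the reads were handled with FastQC, cutadapt, Salmon and StringTie on the mm10 build, with no versions or roles stated. The deposited files give, per the file headers, estimated counts (expected counts, with reads shared between transcripts divided by the model) and TPM for each of 147828 transcripts. They also give the transcript length and the effective length in bases. Of these transcripts 137063 (92.72%) matched the GENCODE M21 annotation of GRCm38 by identifier without its version suffix, and the unmatched ones held 1.28% to 3.67% of a library's reads. Estimated counts were summed per gene and rounded, and the filterByExpr filter, run with the group as factor, left 14711 genes.

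The robust quasi-likelihood test of edgeR 4.0.16, first tested on simulated data, was run on all 12 libraries with TMM scaling and a term for each group, leaving 8 residual degrees of freedom. Its two-sided p-values, adjusted with Benjamini-Hochberg across the genes tested, were called below 0.05. Its biological coefficient of variation of 8.18% gave a median standard error of 0.09 for a BIGH3 log2 fold change in differentiated cells. CPM are counts scaled by TMM library sizes. Each standard error was taken from the F statistic, as the absolute log2 fold change divided by the root of F. Counting intervals are at 95%. A count of 0 allows 3 reads, which like the intervals covers counting error only. The strand of the libraries is not given, so reads of genes that overlap in antisense could not be separated. Ratios within a trimer used TPM. The planned protein features were not used here.

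The members, lists, tests and alternatives were chosen with earlier results of these data known. Values in every library are given for Col1a1, Col1a2 and Col3a1, for the 3 members of each class with the highest mean TPM, and for up to 8 called members per comparison with the largest change and a mean log2 CPM of at least 0. Col4a6, Col5a3, Col9a1, Col14a1 and Col22a1 lie outside this rule and are given to account for all members. Of the processing list, up to 6 called genes with the smallest adjusted p per comparison are named. The list held 43 symbols, of which 42 are in the annotation. Alternatives were DESeq2 1.42.0, limma 3.58.1 on TPM, other scalings, filters, transcript sets and length offsets, a replicate block, and leaving out libraries. Per the labels' numbering, libraries of different groups share replicate numbers, which no label calls a pairing.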

Additional observations from a re-analysis of the deposited data

Results flagged for a closer look

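The BIGH3 effect differed between differentiated and undifferentiated cells, by the interaction term of the fit, for 13 of 35 collagen chains, 37.1% against 32.2% of all genes tested. The difference of log2 fold changes (differentiated minus undifferentiated) was -4.10 for Col9a1, -2.34 for Col15a1, -1.90 for Col19a1, -1.11 for Col6a3 and -0.97 for Col27a1. Col9a1 passed the filter on low values only through the differentiated controls, where it is high, so its difference is partly built in. Smaller differences in the same direction were -0.52 for Col5a2, -0.43 for Col16a1, -0.40 for Col6a2, -0.38 for Col8a2, -0.31 for Col8a1, -0.27 for Col12a1 and -0.25 for Col6a1. Col28a1 alone of the 13 had the opposite sign, at 1.40. The adjusted p was 1.31e-09 for Col6a3, 5.11e-08 for Col28a1, 5.14e-07 for Col27a1 and 1.67e-06 for Col15a1, and reached 0.0177 for Col12a1 (edgeR). Calls for Col6a1, Col6a2, Col8a2 and Col16a1 ended without the libraries richest in Afp. Those for Col6a1, Col8a1, Col8a2, Col12a1 and Col16a1 ended in TPM, as did that of Col19a1 with a pseudocount of 1. Those of Col12a1 and Col19a1 ended from protein-coding transcripts alone, and that of Col12a1 with library totals. The call of Col9a1 ended without undifferentiated BIGH3 3, and that of Col12a1 ended without differentiated BIGH3 1 or undifferentiated BIGH3 1.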

How the results depend on the processing

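The counts of collagen chains called kept within 1.5 times under 24 alternatives (23 for the interaction, which needs all groups), except that the interaction called 7 chains in log2(TPM + 1) and 8 in log2(TPM + 0.1), against 13. Leaving out each library in turn gave 19 to 22 chains for BIGH3 in differentiated cells, 0 in undifferentiated cells, 23 to 29 and 23 to 27 for differentiation with BIGH3 and in controls, and 12 to 17 for the interaction. Over all genes, BIGH3 in undifferentiated cells called 3 genes, against 8 by DESeq2, 21 with no filter, 0 with the compared groups alone, 1 with length offsets, 1 and 0 in TPM with pseudocounts of 1 and 0.1, 1 without the libraries above 20 CPM of Afp, 5 without those above 10 CPM, and 0 to 3 without single libraries. In TPM, with either pseudocount, Col1a2 (-0.27) and Col4a1 (-0.11) reversed for differentiation of controls and Col8a1 (-0.088 with 1 and -0.089 with 0.1) for differentiation with BIGH3, where the median of all genes is itself shifted. In other settings 80 of 1766 values of named pairs of gene and comparison lost their call and kept their sign, and 49 of 1800 did without single libraries. Both totals also hold pairs that had no call to lose, so they do not give the share of calls lost. The reversed values are not among the 80. The cause of these changes was not tested.

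Same-numbered libraries deviated together by correlations of -0.20 to 0.31, so the numbers were not taken as pairs. With a replicate block, of the collagen calls only that of Col18a1 for differentiation of controls changed (0.28 log2 units, adjusted p = 0.0561), the interaction again called 13 chains, and BIGH3 in undifferentiated cells called 3 genes. Depth limits the chains under 1 CPM, where 8 were not tested.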
